A study of Mus musculus with 18 samples.

Results

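The early response of salivary gland stromal cells to adenovirus was compared with the state of the same cell fraction late after infection. The 3 libraries titled hour 3 (replicates 4 to 6) were set against the 3 titled day 23 (replicates 7 to 9), so that 6 of the 18 libraries of the series enter. Both groups come from Balb/c mice aged 8 to 12 weeks that carry no engineered allele, and both had received a replication-defective adenovirus 5 (Ad5) through the cannulated submandibular duct. At hour 3 the glands were taken 3 hours after delivery, and at day 23 they were taken 23 days after it. Each library is from a mouse of its own. The cells were sorted by flow cytometry for gp38, the product of Pdpn, which marks fibroblasts and also lymphatic endothelium, so a library is a bulk sample of a sorted fraction and not of a single cell type. Since the day 23 glands had also been cannulated and infected, the contrast compares 2 times after 1 procedure, and there was no group that was cannulated without virus. A series of such times asks how stromal cells take part in salivary gland inflammation, with the H3K27 demethylase gene Kdm6b named in the title of the study.

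Stromal cells that meet a virus or tissue damage switch on genes through the transcription factor NF-kB, which is held in the cytoplasm by inhibitors of the IkB family until the inhibitors are destroyed. NF-kB drives chemokines, colony-stimulating factors and the genes of its own inhibitors, which end the signal. Type I interferons act through STAT proteins and IRF9 on a response element of antiviral genes, and AP-1 (Fos and Jun family dimers) acts on genes of matrix remodelling.

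The rate of counts on sensory receptor genes, read as background, was higher in the hour 3 libraries than in the day 23 libraries. Olfactory, vomeronasal and taste receptor genes have no known role in stromal cells. Per 10M nuclear counts and kb of exon they took 0.050 ± 0.00996 counts at hour 3 and 0.0240 ± 0.00695 at day 23 (SD, n = 3 each), a ratio of 2.09. The hour 3 libraries ran from 0.0416 to 0.0610 and the day 23 libraries from 0.0160 to 0.0285, without overlap. Both lay far below hour 0, at 1.43 ± 0.384. Among olfactory and vomeronasal genes 2 were themselves called higher at hour 3, such as Olfr432 with 83 counts against 0. The rates were not recomputed without such genes. Mitochondrial genes took 7.25% ± 1.52 of counts at hour 3 and 9.74% ± 1.85 at day 23, and the 10 most abundant genes took 22.2% ± 1.71 and 29.9% ± 5.28. Acinar and duct secretory genes took 5.72% ± 1.59 at hour 3 and 13.8% ± 5.90 at day 23. None of these 4 measures could pass 0.05 in a two-sided exact permutation test, whose smallest p at 3 against 3 is 0.1 (p = 0.1 for receptor, secretory and top genes, 0.133 adjusted over 4 tests, and p = 0.2 for mitochondrial genes). Total counts were 14881470, 13886173 and 14739933 at hour 3, against 6017781, 14565048 and 4585868 at day 23, so low day 23 values rest mostly on replicate 8.

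Of 15273 genes tested, 8122 (53.2%) differed at an adjusted p under 0.05 in edgeR's quasi-likelihood test with Benjamini-Hochberg adjustment. At hour 3, 4085 (26.7%) were higher and 4037 (26.4%) were lower. By over 32-fold, 139 (0.91%) were higher and 114 (0.746%) lower. The 139 genes held 12.5%, 10.3% and 9.85% of all counts in the hour 3 libraries, against 0.241%, 0.129% and 0.174% in the day 23 libraries. The 2 groups thus differ in composition, and scaling bears on every direction. The trimmed mean of M-values (TMM) gave scaling factors of 0.657 to 0.699 at hour 3 and 1.07 to 1.25 at day 23. With library totals alone, log2 fold changes shifted by a median of -0.785 over all genes, and genes higher at hour 3 made up 20.3% of those called, in place of 50.3%.

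From 1 CPM upwards, direction went with expression level. Among 1713 genes with a mean over 100 CPM (counts per 1M, TMM-scaled) over the 6 libraries, 71.7% were higher at hour 3 and 7.88% lower, with a median log2 fold change of 1.03. Among 6474 genes at 10 to 100 CPM the shares were 34.9% higher and 26.8% lower (median 0.0948), and among 5336 at 1 to 10 CPM they were 9.73% and 34.7% (median -0.659). Of 1750 genes under 1 CPM, 76 (4.34%) were higher and 314 (17.9%) lower, with a median of -0.932. Single libraries moved these counts of weak genes: 125 and 163 were higher without day 23 replicates 7 and 8, and 190, 183 and 189 lower without hour 3 replicates 4, 5 and 6. With library totals the medians were -1.38, -1.43, -0.680 and 0.158 from the lowest class to the highest, so the 2 upper classes stayed above the 2 lower ones, while the median at 10 to 100 CPM turned negative. The filter also set the lowest step: the median under 1 CPM was -0.283 with only the 6 libraries, above the -0.668 of the class of 1 to 10 CPM, and 0 with no filter or with all 18 libraries. What part depth, background or cell makeup has in this pattern was not tested.

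**Figure D1:**
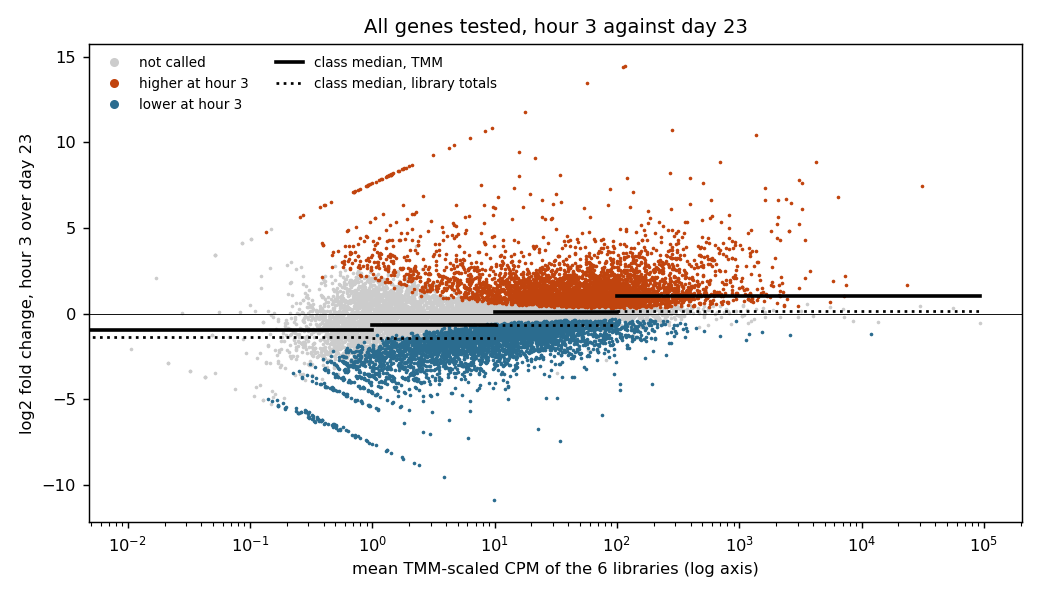
Each point is a tested gene, by its mean TMM-scaled CPM over the 6 libraries (log axis) and its log2 fold change, hour 3 over day 23. Solid lines give the median of each expression class under TMM, -0.932 under 1 CPM and 1.03 over 100 CPM, and dotted lines the same with library totals alone.

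Cytokine and chemokine genes under NF-kB made the largest rises. Of 27 tested, 24 rose and 0 fell, with a median log2 fold change of 6.78 beside -0.126 over all genes, and library totals also left 24 higher. Csf3, which encodes the neutrophil growth factor G-CSF, had 279, 203 and 216 CPM at hour 3 and 0 in every day 23 library. Its 6875 counts at hour 3 against 0 make it at least 2220-fold higher, taking 3 counts over the group as the floor. The neutrophil chemokine Cxcl3 had 272, 232 and 164 CPM against 0 in all 3 day 23 libraries (at least 2120-fold), and Csf2, the gene of the growth factor GM-CSF, had 147, 104 and 90.4 CPM against 0 (at least 1090-fold). All 3 genes had no count at day 23 and were plainly present in each early library.

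The neutrophil chemokine Cxcl5 was at 693, 579 and 416 CPM at hour 3, against 0.798, 0.192 and 0 CPM at day 23 (log2 fold change 10.74 ± 0.488 SE, edgeR adjusted p = 6.52e-09). Lif, a cytokine of the interleukin 6 family, was at 3366, 2353 and 2483 CPM, against 0.931, 2.95 and 1.44 CPM (10.42 ± 0.406, adjusted p = 5.15e-09). No day 23 library came near the hour 3 libraries for either gene, and without day 23 replicate 7 the value of Cxcl5 was 11.87, and without day 23 replicate 8 that of Lif was 11.15. Il6 itself had 8660, 5337 and 5566 CPM at hour 3 and 48.6, 14.9 and 38.2 CPM at day 23 (7.61 ± 0.517, adjusted p = 1.28e-07). The monocyte chemokine Ccl2 had 10370, 7842 and 7270 CPM, against 13.0, 23.3 and 17.9 CPM (8.86 ± 0.438, adjusted p = 8.1e-09). In neither did the groups overlap. Csf1, the macrophage growth factor gene, stood at 13410, 12770 and 12270 CPM at hour 3, against 147, 95.8 and 107 CPM at day 23 (6.78 ± 0.267).

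The same direction held for Ch25h (8.88, or 9.59 without day 23 replicate 9), which makes 25-hydroxycholesterol, for the chemokines Cxcl2 (7.89), Ccl7 (6.61) and Cxcl1 (5.63), for Ptgs2 (7.82), the inducible prostaglandin synthase, and for Il11 (6.23), as log2 fold changes. Rises outside this list were led by Olr1, a receptor for oxidised lipoprotein, with 51.2, 26.0 and 29.6 CPM against 0 in all day 23 libraries (at least 340-fold). Gpr39, a zinc-sensing receptor gene, had 932 counts at hour 3 and 1 at day 23 (ratio 904, exact 95% interval 162 to 35800, for counting error only), and its exons overlap another gene on the opposite strand over 1202 bases. The macrophage elastase gene Mmp12 had 1263 counts at hour 3 and 2 at day 23 (ratio 613, interval 169 to 5070). A further pair of classical cytokine genes moved less. Tnf had 16.7, 9.80 and 10.5 CPM at hour 3, against 2.79, 2.05 and 2.70 CPM at day 23 (2.31 ± 0.332, adjusted p = 6.89e-05). Il1b had 31.7, 39.8 and 33.1 CPM, against 12.1, 6.86 and 8.11 CPM (1.96 ± 0.243, adjusted p = 1.89e-05). Il1a, Ccl3 and Ccl4, which encode an alarmin and a pair of leukocyte chemokines, did not pass (log2 fold changes of 1.55, -0.03 and -0.11), and of them Il1a passed without day 23 replicate 9 (2.71, adjusted p = 0.0196) and in limma-voom (2.47, adjusted p = 0.0285).

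The promoters of Cxcl3 and Il6 are shown because an NF-kB motif lies close to the start of both. Lif, among the largest rises, held no match in the same window. The RefSeq window of Csf2 (chr11:54249900-54250149, -) held none either. It lies upstream of the 5′ end of the gene in GENCODE (54249667), and the bases between were not searched. Both printed windows are the 250 bases before the gene start, 5′ to 3′ on the gene's strand, from RefSeq on GRCm38.p6. They are chr5:90785851-90786100 (+) for Cxcl3 and chr5:30012864-30013113 (+) for Il6, with motif matches on either strand in capitals. The 2 overlapping matches of Cxcl3 begin 73 and 72 bases before the start, and the match of Il6 begins 44 bases before it. A match was found in 3.97% of 20594 promoters and in 4.48% of the 10807 promoters of tested genes. It was found in 6 of 21 promoters of this cytokine list and in 7 of 14 of the list of NF-kB subunits and inhibitors. Some members had no promoter to search, among them Csf3, Cxcl5 and Ccl2 of the first list and Nfkb1 of the second.
Cxcl3: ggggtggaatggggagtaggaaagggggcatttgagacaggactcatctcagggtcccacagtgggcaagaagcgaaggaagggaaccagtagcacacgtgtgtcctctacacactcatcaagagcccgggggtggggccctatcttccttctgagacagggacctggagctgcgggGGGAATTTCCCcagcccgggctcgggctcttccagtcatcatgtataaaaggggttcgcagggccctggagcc
Il6: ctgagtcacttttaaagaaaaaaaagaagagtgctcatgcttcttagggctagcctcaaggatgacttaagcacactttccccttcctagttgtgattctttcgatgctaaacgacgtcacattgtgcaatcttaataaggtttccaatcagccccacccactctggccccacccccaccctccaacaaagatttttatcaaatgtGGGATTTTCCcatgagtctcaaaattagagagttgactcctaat

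**Figure D2:**
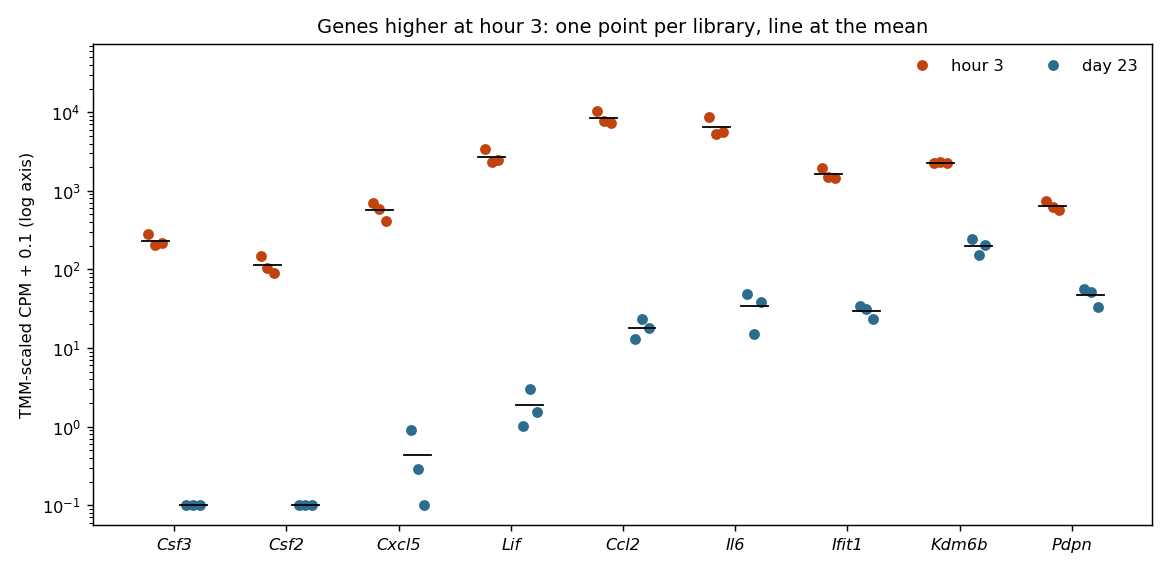
TMM-scaled CPM of 9 genes in the 3 hour 3 libraries (left in each pair) and the 3 day 23 libraries (right), on a log axis with 0.1 added, with 1 point per library and a line at the mean. Csf3 and Csf2 were at 0 in all day 23 libraries, and no gene shown has overlapping groups.

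The genes of NF-kB itself and of its brakes rose along with these targets. Of 17 tested, 13 rose and 0 fell (median 2.21), and with library totals 12 rose and 1 fell. Nfkb1, the gene of the p50 subunit, had 2692, 2142 and 1968 CPM at hour 3, against 118, 54.6 and 93.4 CPM at day 23 (4.68 ± 0.295, adjusted p = 4.84e-08). Nfkbia, which encodes the inhibitor IkB-alpha, had 684, 570.0 and 654 CPM, against 182, 125 and 136 CPM (2.11 ± 0.195, adjusted p = 1.41e-06). Tnfaip3, which encodes the ubiquitin-editing inhibitor A20, had 1678, 1333 and 1278 CPM, against 236, 57.2 and 130 CPM (3.35 ± 0.424, or 3.95 without day 23 replicate 7). The groups did not overlap for these 3 genes, nor for Nfkbiz (0.91 ± 0.255, adjusted p = 0.00851), whose value was 0.09 with library totals (adjusted p = 0.802).

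Immediate-early genes did not move as a block. Of 24 tested, 12 rose and 7 fell (median 0.36), and with library totals 10 rose and 12 fell (median -0.44). Fosl1, an AP-1 subunit gene, had 280.1, 254 and 272 CPM at hour 3, against 1.86, 2.44 and 1.08 CPM at day 23 (7.11 ± 0.335, adjusted p = 7.19e-09), and 1163 bases of its exons overlap a gene of the opposite strand. Myc, a growth regulator, had 617, 581 and 588 CPM, against 34.9, 26.7 and 31.2 CPM (4.27 ± 0.184, adjusted p = 6.24e-09). By contrast the AP-1 genes Fos and Jun were lower at hour 3. Fos had 1304, 891 and 741 CPM, against 2692, 1736 and 1790 CPM at day 23 (-1.08 ± 0.234, adjusted p = 0.00165), and Jun had 1965, 1325 and 1324 CPM, against 3895, 3746 and 3333 CPM (-1.25 ± 0.196, adjusted p = 0.000143). Fosb (-1.53) and the stress factor gene Atf3 (-1.70) fell too, while Egr1 did not pass (-0.41 ± 0.213, adjusted p = 0.124). It was called lower under 4 other settings: without hour 3 replicate 4 or day 23 replicate 8 (adjusted p = 0.0175 and 0.0465), with 5 CPM in 3 libraries (0.036) and with library totals (-1.22, adjusted p = 0.000589). Each of these 4 that fell was separated from day 23 in all libraries. Both groups were sorted for gp38, and the part of the sort and of handling in these genes was not tested.

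Feedback genes of growth factor and cytokine signalling rose more often than they fell. Of 14 MAPK phosphatase and feedback genes 9 rose and 0 fell (median 1.34, and 6 and 2 with library totals), led by the Ras pathway inhibitor Spred1 (3.11 ± 0.195). Of 18 STAT and SOCS genes 10 rose and 3 fell (median 1.42, and 9 and 6 with library totals). Stat3, which carries the signal of the interleukin 6 family, had 1260, 1148 and 1163 CPM at hour 3, against 235, 176 and 227 CPM at day 23 (2.49 ± 0.181, adjusted p = 1.73e-07). Socs3, its feedback inhibitor, had 1686, 1499 and 1524 CPM, against 676, 443 and 464 CPM (1.57 ± 0.206, adjusted p = 3.04e-05). Osmr, the oncostatin M receptor gene, rose by 2.86, and its ligand gene Osm had 3.48, 3.30 and 4.57 CPM against 0, 0.0641 and 0.180 CPM (5.55 ± 0.821, or 6.19 without day 23 replicate 9).

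Of 29 genes that type I interferon induces, 27 rose and 0 fell, with a median of 2.73 (24 higher and 1 lower with library totals). Ifit1, which binds viral RNA and blocks its translation, had 1958, 1494 and 1446 CPM at hour 3, against 34.3, 31.2 and 23.4 CPM at day 23 (5.78 ± 0.262, adjusted p = 6.52e-09). Rsad2, which encodes the antiviral enzyme viperin, had 1680, 929.9 and 919 CPM, against 23.6, 23.3 and 21.3 CPM (5.69 ± 0.285, adjusted p = 8.78e-09). The day 23 values of Rsad2 lay within a narrow band, and all hour 3 values lay far above it. Irf7, the amplifier of interferon production, had 332, 234 and 225 CPM, against 46.8, 33.3 and 31.9 CPM (2.82 ± 0.244, adjusted p = 7.83e-07). Oas3 (0.71) and Bst2 (-0.17) did not pass, and with library totals Bst2 was called lower (-0.93, adjusted p = 0.00588). Ifnb1, the gene of interferon beta, was too low to be tested, with 18 counts over all 6 libraries.

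Ifit1 and Rsad2 are shown for the interferon-stimulated response element, searched as GAAANNGAAA on both strands. The windows are the 250 bases before each start, chr19:34640639-34640888 (+) for Ifit1 and chr12:26456453-26456702 (-) for Rsad2, from RefSeq on GRCm38.p6 with matches in capitals. Ifit1 holds 2 matches, beginning 104 and 85 bases before the start, and Rsad2 holds 1, beginning 120 bases before it. Such a match was present in 9 of 21 promoters of the list, in 3.00% of 20594 promoters and in 2.76% of the 10807 promoters of tested genes.
Ifit1: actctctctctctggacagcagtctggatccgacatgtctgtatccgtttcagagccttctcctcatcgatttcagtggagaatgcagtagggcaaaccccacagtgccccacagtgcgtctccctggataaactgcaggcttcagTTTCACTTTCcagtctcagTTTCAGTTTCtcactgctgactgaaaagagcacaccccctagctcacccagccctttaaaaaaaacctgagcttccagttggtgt
Rsad2: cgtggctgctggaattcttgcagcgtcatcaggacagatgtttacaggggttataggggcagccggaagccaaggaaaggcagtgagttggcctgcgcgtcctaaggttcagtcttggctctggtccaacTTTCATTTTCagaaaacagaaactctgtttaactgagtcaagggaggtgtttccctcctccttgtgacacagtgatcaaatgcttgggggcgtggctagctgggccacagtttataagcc

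Genes known to answer to interferon gamma were mixed, with 11 higher and 3 lower of 20 (median 1.07). Cxcl10, a T cell chemokine that type I interferon and NF-kB also drive, had 1694, 1374 and 1073 CPM at hour 3, against 49.6, 26.5 and 24.3 CPM at day 23 (5.37 ± 0.400, adjusted p = 2.55e-07). Cxcl9, a chemokine for the same receptor, had 106, 98.4 and 81.4 CPM, against 101, 89.6 and 60.4 CPM, with overlapping groups (0.19 ± 0.277, adjusted p = 0.594). Cd274, which encodes the T cell inhibitory ligand PD-L1, rose by 5.33 ± 0.409. Irf1, a transcription factor gene of this response, fell, with 127, 98.4 and 102 CPM against 365, 182 and 346 CPM (-1.45 ± 0.264, adjusted p = 0.000488). Of 15 MHC class I presentation genes 4 rose and 2 fell (median 0.17), and with library totals 1 rose and 8 fell (median -0.65). Shares over all genes were 26.7% higher and 26.4% lower under TMM, so the first count is not read as a change of the class.

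MHC class II presentation was lower throughout. All 7 genes tested were lower at hour 3 (median -2.18), and all 7 were so with library totals. H2-Ab1, a class II chain, had 9.72, 12.9 and 10.2 CPM, against 71.6, 106 and 110.5 CPM at day 23 (-3.13 ± 0.219, adjusted p = 1.22e-07). Cd74, the invariant chain, had 27, 36.9 and 26.3 CPM, against 100.2, 147 and 171 CPM (-2.21 ± 0.212, adjusted p = 2e-06). Ciita, the master regulator of the class, had 0.307, 0.206 and 0.993 CPM, against 2.13, 3.59 and 6.85 CPM (-2.99 ± 0.597, adjusted p = 0.00094, and -3.94 without hour 3 replicate 6). The markers of leukocytes that carry class II were mixed. The summed level of 14 macrophage, monocyte and dendritic cell genes was 46.0 to 71.4 CPM at hour 3 and 51.5 to 86.7 CPM at day 23, with 1 of 12 tested higher (Cd14, 2.60) and 5 lower, among them Adgre1 (-2.90) and Aif1 (-4.40), and without hour 3 replicate 4 or 5 the number lower was 3. In a bulk sorted fraction, fewer cells of a type and less RNA per cell cannot be told apart, and the part of these cells in the class II genes was not tested.

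Kdm6b, which removes the repressive H3K27 methyl mark, had 2242, 2321 and 2235 CPM at hour 3, against 243, 152 and 202 CPM at day 23 (3.51 ± 0.223, adjusted p = 5.18e-08). The early libraries lay within a narrow band far above the late ones. Its paralog Kdm6a had 40.8, 39.9 and 38.8 CPM, against 39.8, 33.1 and 46.3 CPM (0.01 ± 0.165, adjusted p = 0.963), and with library totals it was lower at hour 3 (-0.79, adjusted p = 0.00375). The methyltransferase gene Ezh2 had 10.8, 9.80 and 10.2 CPM, against 12.9, 19.3 and 11.9 CPM (-0.53 ± 0.223, adjusted p = 0.0607), and it passed under 6 of the other settings. Ezh1, the other methyltransferase of the complex, fell, with 9.42, 13.7 and 15.9 CPM against 38.9, 50 and 75.0 CPM (-2.06 ± 0.252, adjusted p = 1.69e-05). Over the 13 writers and erasers tested 6 rose and 3 fell (median 0.21), beside 26.7% higher and 26.4% lower over all genes. With library totals 2 rose and 6 fell (median -0.59).

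Pdpn, whose protein was the gate of the sort, had 736, 628 and 572 CPM at hour 3, against 56.5, 50.9 and 33.5 CPM at day 23 (3.77 ± 0.217, adjusted p = 2.26e-08). Genes of lymphoid stroma and immunofibroblasts were higher in 10 of 18 and lower in 1 (median 0.74), and with library totals in 6 and 4 (median -0.06). The adhesion genes Icam1 (3.56) and Vcam1 (2.99) and the interleukin 4 receptor gene Il4ra (4.02) led them. The lymphoid chemokine genes did not pass. Cxcl13, a B cell attractant, had 13.8, 29.1 and 27.5 CPM, against 8.78, 17.7 and 12.3 CPM (0.84 ± 0.362, adjusted p = 0.0652), and it passed with no filter (adjusted p = 0.00507) and without hour 3 replicate 4 or day 23 replicate 8 (0.0238 and 0.0326). Ccl19, a T cell attractant, had 1.23, 1.34 and 1.09 CPM, against 1.86, 0 and 1.44 CPM, with overlapping groups. Pdgfra, a fibroblast receptor, had 2051, 1844 and 2022 CPM, against 1341, 1253 and 1017 CPM (0.71 ± 0.173, adjusted p = 0.00367), but -0.08 with library totals.

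Genes of clotting and plasminogen activation rose in 13 of 13 (median 4.39, with 11 higher under library totals). Thbs1, which encodes the matricellular protein thrombospondin-1, had 73780, 55670 and 55650 CPM at hour 3, against 487, 214 and 350.1 CPM at day 23 (7.46 ± 0.416, adjusted p = 1.78e-08). By mean CPM Thbs1 was the third most abundant gene at hour 3, after Mucl2 and the mitochondrial RNA gene mt-Rnr2. Plaur, the receptor of the activator urokinase, had 183, 167 and 152 CPM, against 2.79, 1.86 and 1.44 CPM (6.35 ± 0.290, adjusted p = 6.52e-09), and Plau, urokinase itself, rose by 4.39 ± 0.264. Activator and receptor genes were thus both higher at hour 3 with no overlap.

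Among 22 enzymes and inhibitors of matrix remodelling, 18 were higher and 1 lower (median 2.17, and 13 and 2 with library totals). Lox, which crosslinks collagen, had 4794, 3720 and 3783 CPM at hour 3, against 61.1, 28.5 and 32.5 CPM at day 23 (6.66 ± 0.341, adjusted p = 9.9e-09). The stromelysin gene Mmp3 had 7967, 4847 and 5091 CPM, against 201, 150.2 and 119 CPM (5.25 ± 0.279, adjusted p = 1.26e-08), and the protease inhibitor Timp1 had 568, 646 and 429 CPM, against 1.73, 15.3 and 5.05 CPM (6.09 ± 0.584, adjusted p = 7.49e-06). The late values of Timp1 differed widely among mice, yet all lay below the early ones, and without day 23 replicate 8 the difference was 7.36. Hyaluronan and prostaglandin genes rose in 8 of 16 and fell in 3 (median 0.97), with the hyaluronan synthase gene Has1 at 4.45 ± 0.577 and the hyaluronan receptor gene Cd44 at 3.98 ± 0.213, while Hpgd, which degrades prostaglandins, was at -2.99.

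Of 25 structural matrix genes 16 were higher and 1 lower, with a median of 0.77 under TMM and -0.01 with library totals (6 higher and 4 lower), so their balance rests on scaling. Tnc, which encodes the repair-associated glycoprotein tenascin C, rose by 4.90 ± 0.216, while Col1a1, the main fibrillar collagen gene, had 5676, 6881 and 6210 CPM at hour 3, against 6141, 3650 and 4530 CPM at day 23, with overlapping groups (0.39 ± 0.213, adjusted p = 0.14), and passed only without day 23 replicate 7 among the settings run (0.62, adjusted p = 0.0123). Resting fibroblast genes rose in 12 of 23 and fell in 3 (median 0.58), and with library totals in 4 and 9 (median -0.21). Dpt had 385, 574 and 490.1 CPM, against 255, 139.8 and 214 CPM (1.25 ± 0.257, adjusted p = 0.00114), and the call was lost with library totals (0.44, adjusted p = 0.179). Pi16, a marker of adventitial fibroblasts, was at 0.92 ± 0.342 (adjusted p = 0.0388), and the call was lost without 5 of the 6 libraries in turn (adjusted p = 0.0644 to 0.139), and with library totals (0.13, adjusted p = 0.737), limma-voom (0.0807), 5 CPM in 3 libraries (0.0739) and all 18 libraries (0.138). Fgf10, a fibroblast ligand for epithelium, was lower at hour 3 (-1.88 ± 0.277). Contractile genes rose in 1 of 12 and fell in 3 (median -0.44), or in 6 without day 23 replicate 7, and 3 rose without day 23 replicate 8. With library totals 0 rose and 10 fell (median -1.22). Under TMM the shares over all genes were 26.7% higher and 26.4% lower.

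Plaur and Mmp3 are shown because the AP-1 motif, searched as TGANTCA on both strands, lies within 100 bases of both starts. Timp1 and Pdpn, which also rose, held no match in the same window. The windows are again the 250 bases before the start from RefSeq on GRCm38.p6, chr7:24462233-24462482 (+) for Plaur and chr9:7445572-7445821 (+) for Mmp3, with the match in capitals. It begins 69 bases before the start of Plaur and 46 bases before that of Mmp3. Of 100 genes higher at hour 3 by over 32-fold that had a promoter in the table, 23 (23.0%) held a match. The share was 6.44% of 20594 promoters and 4.26% of the 10807 promoters of tested genes. An AP-1 match was also in 6 of 21 promoters of the type I interferon list and 4 of 21 of the cytokine list. Of the same 100 genes 9 held the NF-kB motif and 6 the interferon-stimulated response element, beside 4.48% and 2.76% of tested genes. The 100 genes were picked by their rise, and no test was made of these shares.
Plaur: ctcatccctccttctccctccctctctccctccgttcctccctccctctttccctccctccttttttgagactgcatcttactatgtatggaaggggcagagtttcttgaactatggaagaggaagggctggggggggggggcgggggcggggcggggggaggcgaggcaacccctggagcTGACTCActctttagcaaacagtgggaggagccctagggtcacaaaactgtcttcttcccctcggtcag
Mmp3: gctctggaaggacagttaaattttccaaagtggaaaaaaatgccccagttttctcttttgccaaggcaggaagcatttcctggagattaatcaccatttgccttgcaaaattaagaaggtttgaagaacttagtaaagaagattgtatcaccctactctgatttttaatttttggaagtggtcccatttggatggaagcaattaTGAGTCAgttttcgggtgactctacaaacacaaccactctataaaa

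Metal and oxidative stress genes rose in 11 of 15 and fell in 0 (median 3.54). Mt2, a metallothionein that binds zinc and copper, had 3732, 2969 and 2897 CPM at hour 3, against 46.0, 27 and 22.2 CPM at day 23 (6.65 ± 0.311, adjusted p = 7.01e-09). Mt1, its neighbour and paralog, had 3823, 3389 and 3396 CPM, against 131, 137 and 109 CPM (4.81 ± 0.190, adjusted p = 5.15e-09). The groups were far apart for both. Sod2, the mitochondrial superoxide dismutase, rose by 4.15, Srxn1, which repairs peroxiredoxins, by 4.30, and Hmox1, which degrades haem, by 4.06. Slc7a11, the cystine importer, had 925 counts at hour 3 and 3 at day 23, a ratio of 299 (exact 95% interval 102 to 1450, for counting error only).

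The promoter of Mt2 (chr8:94172368-94172617, +, RefSeq on GRCm38.p6) is shown for the core of the metal response element, searched as TGCACNC and TGCGCNC on both strands. It holds 3 matches, in capitals, beginning 223, 128 and 50 bases before the start. The core is short and was present in 23.1% of 20594 promoters, in 30.4% of the 10807 promoters of tested genes and in 5 of 12 of the list.
Mt2: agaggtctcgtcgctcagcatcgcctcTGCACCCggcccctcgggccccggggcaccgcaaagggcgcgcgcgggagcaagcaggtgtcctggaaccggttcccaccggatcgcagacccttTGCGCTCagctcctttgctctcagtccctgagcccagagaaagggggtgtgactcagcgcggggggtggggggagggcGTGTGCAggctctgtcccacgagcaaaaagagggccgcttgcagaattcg

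Glycolysis and hypoxia genes rose in 12 of 19 and fell in 0 (median 0.94), and with library totals 8 rose and 5 fell. Hk2, an inducible hexokinase, had 2781, 2196 and 2277 CPM at hour 3, against 99.5, 57.5 and 89.0 CPM at day 23 (4.89 ± 0.270, adjusted p = 1.7e-08). The glucose transporter gene Slc2a1 rose by 3.89 and Hif1a, the oxygen-sensing factor, by 3.76. Cholesterol synthesis genes fell in 10 of 17 and rose in 3 (median -1.19), and with library totals in 13 and 1. Mvk, mevalonate kinase, had 2.66, 3.09 and 3.48 CPM at hour 3, against 12.4, 20.9 and 20.6 CPM (-2.54 ± 0.282, adjusted p = 7.28e-06), and the groups did not overlap.

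Heat-shock genes were divided, with 8 higher and 5 lower of 15 (median 0.54 with TMM and -0.25 with library totals). Hspa1b, an inducible HSP70 gene, had 18.6, 17.7 and 26.0 CPM at hour 3, against 389, 403 and 300.0 CPM at day 23 (-4.13 ± 0.203, adjusted p = 8.1e-09). Its near-identical copy Hspa1a, with which it can share reads, was at -4.08 ± 0.208. The co-chaperone gene Dnajb1 fell by 1.46, and the endoplasmic reticulum chaperone gene Hspa5 rose by 1.41. Mean levels of Hspa1a and Hspa1b at day 8 were 68.0 and 117 CPM, between those of hour 3 and day 23.

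Among the 12 largest falls at moderate level were genes of several functions. Def6, a guanine nucleotide exchange factor gene, had 0.921, 0.825 and 0.596 CPM at hour 3, against 20.4, 20.8 and 34.1 CPM at day 23 (-4.98 ± 0.311, adjusted p = 4.45e-08). Ntf3, the neurotrophin-3 gene, had 0.409, 0.928 and 0.794 CPM, against 10.9, 19.2 and 12.8 CPM (-4.32 ± 0.398, adjusted p = 1.36e-06). Cbfa2t3, a transcriptional co-repressor, had 0.205, 0.516 and 0 CPM, against 13.0, 15.6 and 8.65 CPM (-5.66 ± 0.554, adjusted p = 2.36e-06, and -6.81 without hour 3 replicate 5). None of the 3 had overlapping groups. Gbp8 (-4.93), Nynrin (-4.90), Cep131 (-4.41), a centriolar satellite gene, Ccdc8 (-4.37), Ankrd35 (-4.24) and Rtl3 (-4.19) followed. Exons of Nynrin overlap another gene on the opposite strand over 4245 bases, and the strand setting of the counts is not given in the sources used here. Palm3 had 2 counts at hour 3 and 372 at day 23, a ratio of 192 (interval 52.7 to 1590). Bpifa2, a salivary secretory protein gene, had 0, 0.722 and 0.397 CPM, against 5.72, 76.2 and 121 CPM (-7.46 ± 1.36, adjusted p = 0.0025). It did not pass in limma-voom (adjusted p = 0.243). The secretory share given above was also lower at hour 3, and its part in this fall was not tested.

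Clock genes moved in both directions, with 5 higher and 4 lower of 18 (median 0.11), close to the shares of all genes, and 3 higher and 10 lower with library totals (median -0.70). Dbp, an output gene of the clock, had 0.614, 0.206 and 0.199 CPM at hour 3, against 12.8, 7.76 and 16.2 CPM at day 23 (-5.12 ± 0.50, adjusted p = 2.32e-06, and -5.83 without hour 3 replicate 4). Exons of Dbp overlap a gene of the opposite strand over 539 bases. Per3 (-2.47) and Tef (-2.04) were lower too, and Arntl, which encodes BMAL1, was higher, with 199.8, 169.7 and 169 CPM against 52.2, 70.8 and 45.1 CPM (1.67 ± 0.197, adjusted p = 1.22e-05). Nr1d1 (0.32, adjusted p = 0.143) and Per1 (0.12, adjusted p = 0.697) did not pass. Without day 23 replicate 7 Nr1d1 did (0.49, adjusted p = 0.0273), and with library totals Per1 was lower at hour 3 (-0.69, adjusted p = 0.0457). The labels give no hour of the day, so time after infection and time of day cannot be told apart in these genes.

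**Figure D3:**
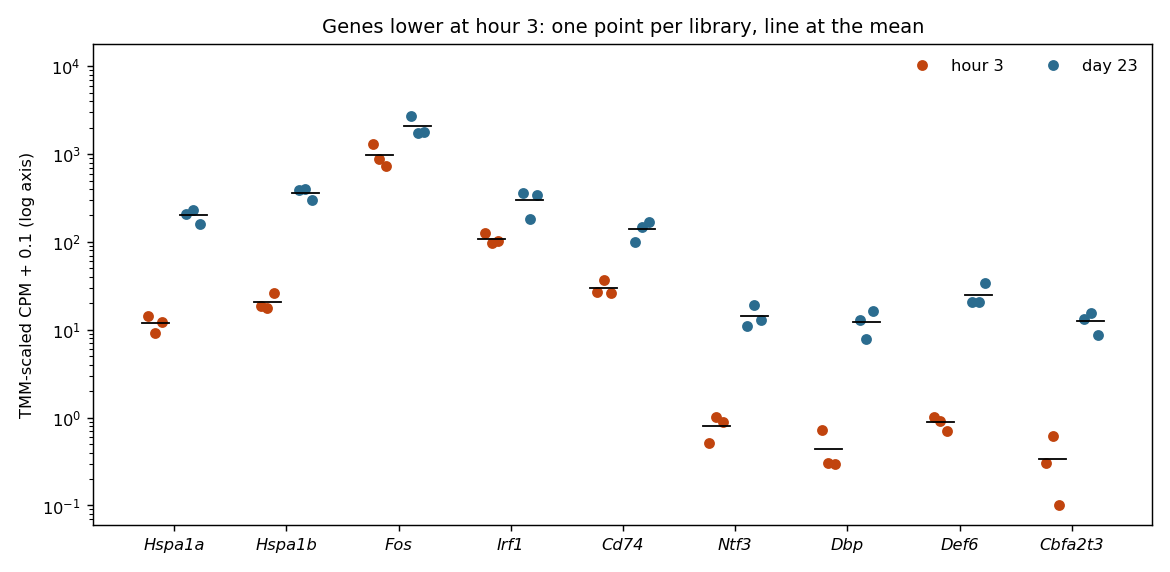
TMM-scaled CPM of 9 genes in the 3 hour 3 libraries (left in each pair) and the 3 day 23 libraries (right), on a log axis with 0.1 added, with 1 point per library and a line at the mean. All 9 were lower at hour 3 with no overlap, from Fos (-1.08 on the log2 scale) to Cbfa2t3 (-5.66).

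Weakly expressed genes were read beside the receptor rate. Of the genes at 0.5 to 5 CPM in their higher group, Clec4e, a receptor of neutrophils and macrophages for damaged cells, had 125 counts at hour 3 and 0 at day 23, at least 40.4-fold higher. At the rate of the sensory receptor genes, its exons would have taken 1.01 counts at hour 3 and 0.237 at day 23. Il5, an eosinophil growth factor, had 117 counts against 0 (at least 37.8-fold), with 0.311 from that rate at hour 3. Replicate 4 held 57 of the 117. Exons of Il5 overlap a gene of the opposite strand over 417 bases, and the strand setting is not given. Mycn had 108 against 0 (at least 34.9-fold), the homeobox gene Vax1 had 106 against 0 (at least 34.3-fold), and Slitrk5 had 95 against 0 (at least 30.7-fold). Replicate 4 held 64 of the 108 counts of Mycn and 59 of the 95 of Slitrk5, whose log2 fold changes were 7.80 and 7.505 without it, in place of 8.48 and 8.30. The processed pseudogene Rps12-ps9 had 97 against 0, and as a copy of a ribosomal protein gene it can take reads of its parent. The receptor rate ignores base composition and is a guide only.

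In the other direction Prpmp5 had 0 counts at hour 3 and 122 at day 23, at least 41.9-fold lower, although the hour 3 libraries were deeper. Esp4 had 0 against 91 (at least 31.3-fold), 71 of them in day 23 replicate 8, the stress-inducible Ddit4l had 0 against 85 (at least 29.2-fold), Apol7e had 0 against 75 (at least 25.8-fold), and Zfp677 had 0 against 65 (at least 22.3-fold). Exons of Apol7e overlap a gene of the opposite strand over 324 bases. Without day 23 replicate 8 the log2 fold change of Esp4 was -7.23, in place of -8.04. The T cell receptor complex gene Cd3e had 0 against 55 (at least 18.9-fold). Of a list of 33 signalling genes expected at low level, 17 passed the filter, of which 11 rose and 4 fell. Over all genes 26.7% were higher and 26.4% lower. Of the 33, 14 were at 0 at day 23 and 5 at hour 3, so a member could pass through its higher group alone. With no filter 12 of 30 rose and 4 fell. Gdnf, a neurotrophic ligand, had 97.8, 47.2 and 58.8 CPM at hour 3, against 0.133, 0.385 and 0 CPM at day 23 (8.10 ± 0.485, adjusted p = 3.18e-08, and 9.55 without day 23 replicate 8). Edn1, the endothelin-1 gene, fell, with 1.23, 0.619 and 1.59 CPM against 9.45, 8.91 and 5.77 CPM (-2.81 ± 0.356, adjusted p = 2.32e-05). Ccl20 had 8 counts over the 6 libraries and was not tested.

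A set of 8 genes with large falls between hour 3 and hour 0, chosen for that after their values had been seen, was read against day 23, and both readings share the hour 3 libraries. Irx4 had 1 count at hour 3, 49 at day 23 and 322 at hour 0. Against day 23 it was lower at hour 3 (-5.35 ± 1.06, adjusted p = 0.000925), as were Slx1b, with 2 against 106 counts (-5.45 ± 0.979, adjusted p = 0.000427), and Cbfa2t3. Without hour 3 replicate 4 the values of Irx4 and Slx1b were -7.48 and -8.40. For these 3 the late libraries held counts that the early ones had few or none of. By contrast Csmd2 had 3 counts at hour 3, 0 at day 23 and 312 at hour 0, and Ryr3 had 5, 0 and 428. At the receptor rate 3.46 and 3.84 counts would be found for them at hour 3, and 58.3 and 64.8 at hour 0. Cacna1e (2 counts at hour 3 and 8 at day 23) and Mroh2a (4 and 16) were too low to test, and the muscle gene Ttn had 26 counts at hour 3 and 72 at day 23 and did not pass (-1.84 ± 0.742, adjusted p = 0.052), though it did under 7 other settings, among them those without hour 3 replicate 6 or day 23 replicate 8 (adjusted p = 0.016 and 0.0127).

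**Figure D4:**
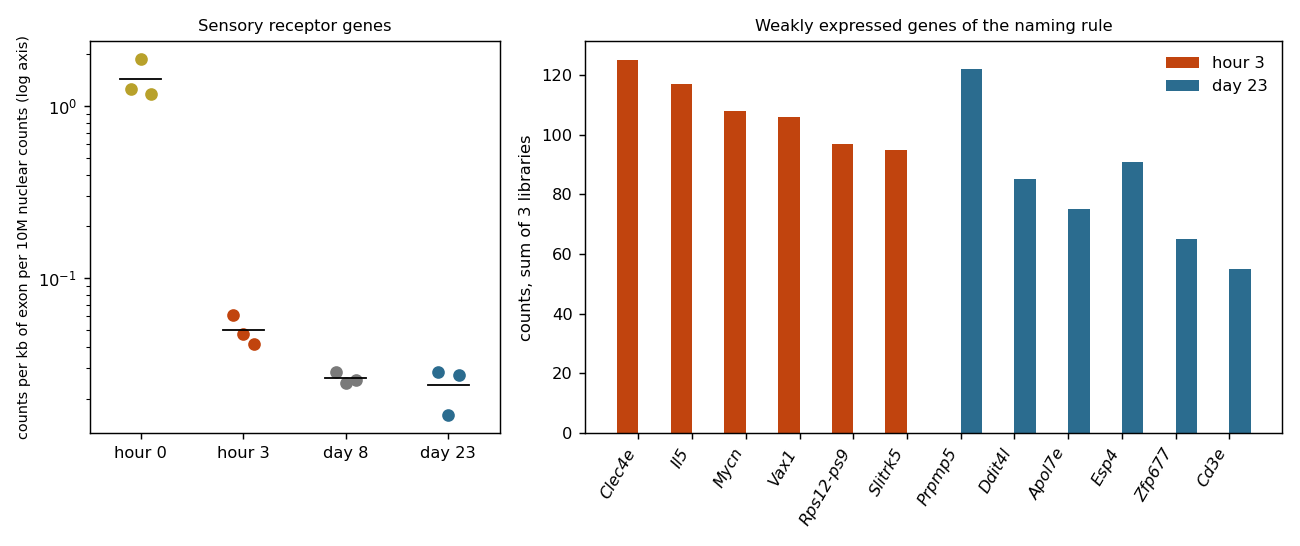
Left, the rate of counts on sensory receptor genes (per 10M nuclear counts and kb of exon) in each library (points, with the mean as a line, log axis) at hour 0, hour 3, day 8 and day 23, with means of 0.050 at hour 3 and 0.0240 at day 23. Right, counts summed over 3 libraries for 12 weakly expressed genes, each with 0 counts in the lower group.

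Markers of some other cells differed between the groups as well. Of 10 neutrophil genes listed, 4 passed the filter, through their hour 3 libraries, so that all 4 were higher follows from the filter. With no filter 6 of 10 were higher. The 10 had a summed level of 30.4 to 38.7 CPM at hour 3 and 0.18 to 1.86 CPM at day 23, and 7 of them were at 0 at day 23. S100a9, an abundant neutrophil protein gene, had 16.4, 15.1 and 18.8 CPM against 0 in all day 23 libraries (at least 160-fold). Clec4e above, Slfn4 (at least 121-fold) and the neutrophil chemokine receptor gene Cxcr2 (at least 19.1-fold) share this pattern, and the part of neutrophils in the cytokine list was not tested. T and NK cell genes fell in 8 of 14 and rose in 0 (median -3.44), beside 26.4% lower and 26.7% higher over all genes. Their summed level was 9.83 to 11.0 CPM at hour 3 and 23.8 to 30.8 CPM at day 23. Of the list, 4 were at 0 at hour 3, so these passed the filter through later libraries and could only be lower. With only the 6 libraries 4 of 7 were lower, and with no filter 9 of 15, while 0 rose in both. Cd3g had 1 count at hour 3 and 178 at day 23 (ratio 183, interval 32.5 to 7290). B and plasma cell genes had 1 of 3 lower, Ighm, at 0.307, 0.309 and 0.596 CPM against 2.93, 11.2 and 119.7 CPM (-6.72 ± 1.55, adjusted p = 0.00641), which was -4.12 without day 23 replicate 9 and did not pass in limma-voom (adjusted p = 0.219). Of 4 such genes tested without hour 3 replicate 5, 3 were lower. Without day 23 replicate 7, 1 of 4 was higher and 2 lower, and in limma-voom 1 of 3 was higher and 0 lower, so this list has no settled direction.

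Fibroblast genes rose in 7 of 10 and fell in 0 (median 0.71), and with library totals in 3 and 2 (median -0.08), with a summed level of 33350 to 34500 CPM at hour 3 and 16880 to 27600 CPM at day 23, so the labelled cell fraction was present in both groups. Acinar and duct secretory genes had 2 of 21 higher and 3 lower, and Mucl2, a salivary mucin-like gene, had 53510, 86840 and 85480 CPM at hour 3, against 51710, 161400 and 118900 CPM at day 23, with overlapping groups (-0.56 ± 0.446, adjusted p = 0.311), though with library totals it was called lower (-1.31, adjusted p = 0.0142). Epithelial genes had 2 of 13 higher and 5 lower, blood endothelial genes 2 of 12 higher and 3 lower, lymphatic endothelial genes 3 of 5 higher, and mural genes 3 of 7 higher and 3 lower. Glial genes had 3 of 8 higher and 2 lower, erythroid genes 2 of 5 higher, and the 1 adipocyte gene tested did not pass. With only the 6 libraries 0 of 2 erythroid genes were higher. Over all genes 26.7% were higher and 26.4% lower. Counts near or below these shares, as for secretory, blood endothelial and glial genes, are not read as a change of a cell type. With library totals the counts higher and lower were 2 and 9 for secretory, 0 and 9 for epithelial, 1 and 6 for blood endothelial and 1 and 4 for mural genes, and 1 lymphatic and 1 erythroid gene were higher. Single libraries moved several of these small counts: without day 23 replicate 7 the secretory genes lower were 5, without hour 3 replicate 6 the lymphatic genes higher were 1, and the erythroid genes higher were 1 when any library other than day 23 replicate 8 was left out. Selp, an endothelial adhesion gene of activated vessels, had 453 counts at hour 3 and 2 at day 23 (ratio 220.2, interval 60.5 to 1820), while the endothelial receptor gene Kdr fell by 1.82.

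**Figure D5:**
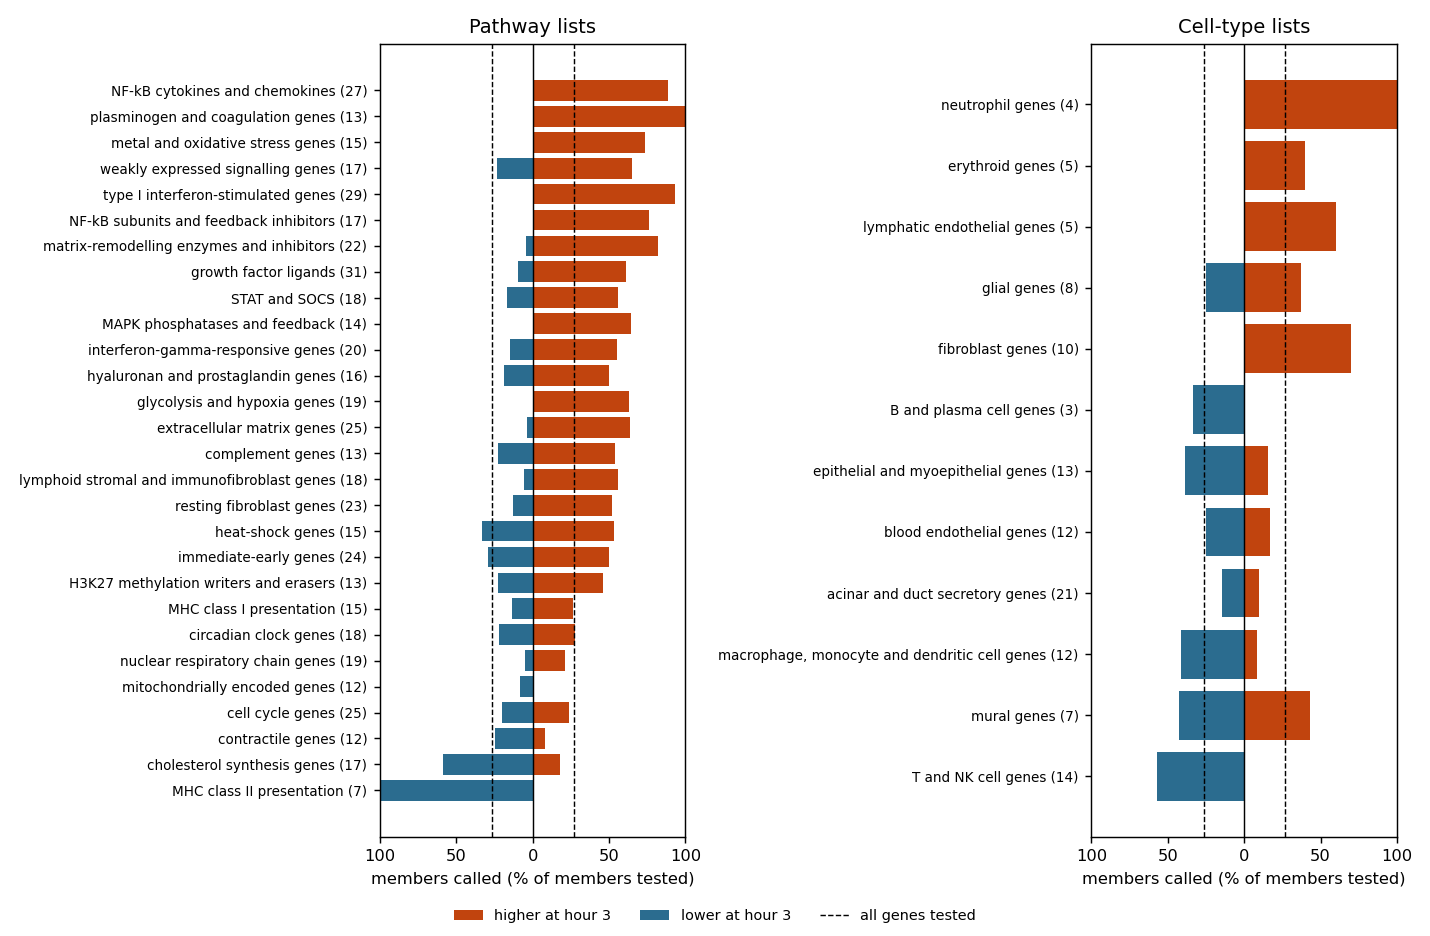
For each list with 3 or more genes tested (number in brackets), bars give the percent of tested members that were higher at hour 3 (right) or lower (left), ordered by median log2 fold change. Dashed lines mark the shares over all genes tested, 26.7% higher and 26.4% lower.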

How the data were processed

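RNA-seq counts of 18 libraries were available, and 6 of them form the comparison. The authors deposited unnormalized counts for each Ensembl gene. FastQC, STAR, Subread, DESeq2 and mm10 are named by the submitters' processing notes; versions, annotation release, strand setting and treatment of multiply mapping reads are not given in the sources used here. Of 55401 gene identifiers 55141 matched GENCODE on GRCm38 (mm10), and the other 260 held 0.0158% of counts of the 6 libraries.

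The 9 libraries of hour 3, day 8 and day 23 entered 1 robust quasi-likelihood fit in edgeR 4.0.16 (R 4.3.3), with filterByExpr (minimum count 10, minimum total 15), TMM scaling and the contrast hour 3 minus day 23. The filter used all 9 libraries, so a gene could pass through 1 group alone. Rose, fell, higher and lower mark a Benjamini-Hochberg adjusted p under 0.05 over all genes tested. Fold changes are log2 with their standard error. CPM is TMM-scaled. Against a group at 0 the floor is 3 counts over that group. Ratios with 1 to 3 counts have exact 95% intervals; both cover counting error only. P-values measure the spread between mice of a group. Replicates differed by more than sampling noise (chi-square per gene of 11.6 to 33.6 between hour 3 libraries and 29.4 to 90.2 between day 23 libraries). Fits were tested on simulated data first.

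Named genes are the 12 largest rises and falls with a mean of at least 10 CPM in the higher group and no overlap, 6 and 6 between 0.5 and 5 CPM, up to 8 members of each of 41 gene lists by rank of adjusted p, and a set of known genes; the rises and falls exclude predicted gene models and segments of antigen receptor genes. Outside this rule, and chosen after their values were seen, are Atf3, Bst2, Ccl3, Ccl4, Ccl7, Ciita, Fosb, Hspa5, Il1a, Jun, Oas3, Wnt5a, mt-Rnr2 and the 8 genes read against hour 0. The comparison, members and lists were chosen with earlier results of these data known. Promoters were taken from a RefSeq table of 20594 genes. Alternatives were DESeq2 size factors, library totals alone, no filter, 5 CPM in 3 libraries, DESeq2 1.42.0, limma-voom 3.58.1, only the 6 libraries, all 18 libraries, and leaving out each of the 6 libraries in turn.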

Additional observations from a re-analysis of the deposited data

How the results depend on the processing

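Scaling moved most. With library totals alone 1954 genes were higher and 7685 lower at hour 3, and 520 of the weakly expressed genes (mean under 1 CPM) were lower. The same setting turned negative the log2 fold changes of Kdm6a (-0.79), Pdgfra (-0.082), Ccl19 (-0.60), Cxcl9 (-0.61), Col1a1 (-0.42), Nr1d1 (-0.48), Per1 (-0.69), Oas3 (-0.10) and mt-Rnr2 (-0.43), by construction of the scaling. Counts of weakly expressed genes followed the filter, which sets how many are tested: 224 higher and 504 lower with no filter, 1 and 11 with 5 CPM in 3 libraries, 47 and 99 with only the 6 libraries, and 247 higher with all 18. Leaving out each library in turn gave 3677 to 4343 genes higher and 3279 to 4456 lower, and 89 to 163 weak genes higher and 183 to 451 lower. The cause was not tested.

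Genes near 0 that did not pass changed sign under these settings. Kdm6a was at -0.017 with DESeq2 size factors, -0.14 with 5 CPM in 3 libraries, -0.013 in DESeq2, -0.034 with only the 6 libraries and -0.049 with all 18. Per1 was at -0.031 with 5 CPM in 3 libraries, and Ccl4 at 0.27 in limma-voom. Leaving out each library in turn gave -0.16 to 0.13 for Kdm6a, -0.14 to 0.26 for Per1, -0.49 to 1.10 for Ccl19, -0.39 to 0.20 for Bst2, -0.17 to 0.22 for Ccl3 and -0.62 to 0.23 for Ccl4. Of 144 genes followed, 121 kept direction and call in every setting in which they were tested. No paired analysis was possible because the 2 groups share no replicate number. Depth at day 23 (4585868 counts in the shallowest library) limits what can be said of weak genes.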

Other observations

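Growth factor ligand genes were mostly higher at hour 3, in 19 of 31 tested, with 3 lower and a median log2 fold change of 1.55 (15 and 6 with library totals). Bmp2, a bone morphogenetic protein gene, had 247, 116 and 163 CPM at hour 3, against 10.9, 8.34 and 8.29 CPM at day 23 (4.26 ± 0.277, edgeR adjusted p = 6.41e-08), and the fibroblast growth factor gene Fgf2 rose by 4.06 ± 0.236. Wnt5a, a ligand of non-canonical Wnt signalling, was lower, with 5.94, 6.50 and 4.17 CPM against 27.4, 15.3 and 26.7 CPM (-2.05 ± 0.318, adjusted p = 0.000131). The groups did not overlap for Bmp2, Fgf2 and Wnt5a.

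Of 13 complement genes 7 were higher and 3 lower (median 0.74), and with library totals 3 and 4 (median -0.06). The 3 lower ones were the C1q chain genes C1qa, C1qb and C1qc, which macrophages express. C1qa had 0.512, 1.55 and 1.39 CPM at hour 3, against 7.72, 8.46 and 2.88 CPM at day 23 (-2.49 ± 0.451, adjusted p = 0.00045). Of 25 cell cycle genes 6 were higher and 5 lower (median -0.27), and with library totals 5 and 10. The TMM counts lie below the shares over all genes, 26.7% higher and 26.4% lower. Their summed level was 679 to 892 CPM at hour 3 and 200 to 255 CPM at day 23. Mcm6, of the replication helicase, rose by 2.28 ± 0.233, and the mitotic kinase gene Cdk1 was at -3.30 ± 0.652 on under 3 CPM in every library. Nuclear respiratory chain genes had 4 of 19 higher and 1 lower, and mitochondrially encoded genes 0 of 12 higher and 1 lower, mt-Nd3, whose groups overlapped. Each of these counts lies below the same shares over all genes. With library totals these counts were 0 higher and 14 lower, and 0 higher and 7 lower.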
